A study of Homo sapiens with 12 samples.

Results

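The activating arm of the circadian clock was examined through the 4 genes whose products can build its DNA-binding dimer, ARNTL (now BMAL1), ARNTL2 (now BMAL2), CLOCK and NPAS2. They were taken from the count table by name, each had its own line, and they are 4 of 38021 gene names and 4 of the 16838 genes with enough counts to test. RNA was sequenced from 12 cultures of clear cell renal cell carcinoma cells, 3 for each of 4 groups. The 786O line lacks functional VHL, the subunit of the ubiquitin ligase that marks HIF-α proteins for destruction, and WT8 is a 786O derivative that expresses wildtype VHL. Each line carried a lentiviral pLKO.1 construct under puromycin selection, encoding either a control hairpin (shControl) or a hairpin against BMAL1 (shBMAL1), so no group is free of virus or drug. The groups are called 786O shControl, 786O shBMAL1, WT8 shControl and WT8 shBMAL1. The study depleted BMAL1 to measure its part in HIF2α-driven expression in 786O, and used WT8 to pick out transcripts that depend on VHL's suppression of HIF2α.

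BMAL1 and its paralog BMAL2 belong to the bHLH-PAS family of transcription factors and pair with CLOCK or with its paralog NPAS2. The dimers bind E-box sequences and drive the period and cryptochrome genes, whose products return to inhibit the dimer, and the REV-ERB genes NR1D1 and NR1D2, whose products repress BMAL1, CLOCK and NPAS2 from response elements that they share with the activating ROR receptors. BMAL1 is the dimer's indispensable subunit in most tissues, kidney included, while NPAS2 can take the place of CLOCK in part.

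A few features of the cultures bear on what follows. The study's methods list a hairpin against BMAL1 and an independent one, and the labels do not say which these cultures carried. No hairpin sequence was in the sources used here, and so a match to ARNTL2 was not examined. The lines were compared as populations, and effects of VHL cannot be told apart from other differences between 786O and WT8. No synchronization or hour of harvest is given for these cultures, so the phase of the clock in each is unknown. The labels number the replicates as biological without saying how the cultures were separated, and p-values measure the spread between these libraries. In bulk RNA, fewer cells with a transcript and less transcript per cell cannot be told apart.

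Totals ran from 33182005 to 36477484 counts per library, and the lines matched their labels, with 602 to 740 counts of VHL in the 6 libraries of 786O and 23607 to 37514 in the 6 of WT8. Within WT8, however, VHL fell by 0.60 on the log2 scale with shBMAL1 (adjusted p 6.67e-13, SE 0.05), with 31578 to 37514 counts in controls and 23607 to 24876 in depleted libraries. All 6 genes listed as renal epithelial markers (PAX2, PAX8, KRT8, KRT18, VIM and CDH2) had a mean of at least 1 CPM in every group. Their levels still differed between the lines, and with shControl 3 of the 6 were called with a change over 2-fold. In 786O and WT8 with shControl, PAX8 had 313 and 1335 CPM, VIM 4481 and 1948 CPM, and CDH2 530 and 106 CPM. A call at any size was made for 79.5% of all genes in this comparison. The 5 leukocyte markers summed to at most 0.517 CPM and the 4 endothelial markers to at most 1.47 CPM in any library, with CD3E at 0 counts in all 12. CPM is the usual scaled count, relative here to the library total after TMM scaling, a correction for differences in composition.

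The data on each gene begin with ARNTL, the target of the hairpin (GRCh37 chromosome 11, 13298199 to 13408813, plus strand). It had 464, 378 and 423 counts in the 3 libraries of 786O shControl and 142, 128 and 141 in 786O shBMAL1. In WT8 it had 332, 355 and 309 counts with shControl and 56, 72 and 58 with shBMAL1. The groups did not overlap in either line, which held for 50.9% of all genes tested in 786O and 67.6% in WT8, and the hairpin left less ARNTL in WT8 than in 786O. Depleted cells retained 32.5% of the mean CPM of their own control in 786O and 17.9% in WT8. By the quasi-likelihood test of edgeR, with p-values adjusted by the method of Benjamini and Hochberg over the 16838 genes, the log2 change was -1.62 in 786O (SE 0.13, 95% interval -1.88 to -1.37, adjusted p 4.90e-13) and -2.48 in WT8 (SE 0.14, interval -2.77 to -2.19, adjusted p 2.66e-17). ARNTL was not the gene with the largest decrease in either line, as 271 genes in 786O and 518 genes in WT8 had a more negative fitted change than the hairpin's own target. The ARNTL changes differed between lines by -0.86 (SE 0.19, adjusted p 3.69e-04 for the interaction, which is the change in WT8 minus the change in 786O).

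ARNTL was also lower in WT8 than in 786O with the control hairpin. Mean CPM was 12.1 ± 1.37 (SD, n = 3) in 786O shControl and 9.24 ± 0.966 in WT8 shControl, which differ by -0.39 on the log2 scale (adjusted p 0.00264, SE 0.12). The 4 groups therefore had the order 786O shControl, WT8 shControl, 786O shBMAL1 and WT8 shBMAL1, the last at 1.66 ± 0.236 CPM, and each neighbour in this order differed by the edgeR test. With so few counts, ARNTL in WT8 shBMAL1 had a standard deviation of 14.2% of its mean, close to the 12.7% that counting alone gives.

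ARNTL2 (chromosome 12, 27485769 to 27578222, plus strand), the paralog that can stand in for BMAL1 in the dimer, had no called change with the hairpin in 786O. It had 2332, 2470 and 2448 counts in 786O shControl and 2503, 2323 and 2368 in 786O shBMAL1, and the groups overlapped. The log2 change was -0.01 (95% interval -0.13 to 0.11, adjusted p 0.912 in edgeR). The result in WT8 was different. ARNTL2 had 1415, 1165 and 1165 counts with shControl and 2070, 1902 and 2008 with shBMAL1, and every depleted library lay above every control library. ARNTL2 rose by 0.62 on the log2 scale (SE 0.06, adjusted p 5.96e-11 in edgeR), to 153.6% of the WT8 control mean. The interaction was 0.63 (SE 0.09, adjusted p 1.10e-07).

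The difference in ARNTL2 between the lines was the largest that any of the 4 genes showed with shControl. Mean CPM was 69.4 ± 1.30 (SD, n = 3) in 786O shControl and 34.6 ± 3.47 in WT8 shControl, or 2.00 times as much in 786O (95% interval of the log2 difference -1.13 to -0.88, adjusted p 6.97e-17). With shBMAL1 the means were 68.9 ± 2.62 CPM in 786O and 53.2 ± 2.14 CPM in WT8, and the lines differed by -0.37 (adjusted p 1.15e-06 in edgeR). In order of level, both 786O groups came first, with no difference called between them, followed by WT8 shBMAL1 and then WT8 shControl. The WT8 shControl libraries spread most, with a chi-square of 25.2 on 2 degrees of freedom against counting error, since replicate 1 had 38.5 CPM and the others 33.8 and 31.7 CPM. Without replicate 1 the rise in WT8 was 0.70.

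CLOCK (chromosome 4, 56294070 to 56413076, minus strand), the usual partner of BMAL1, also had no called change in 786O and a rise in WT8. Its libraries had 1284, 1437 and 1392 counts in 786O shControl and 1407, 1304 and 1416 in 786O shBMAL1. They had 865, 912 and 968 counts in WT8 shControl and 1276, 1395 and 1244 in WT8 shBMAL1. The 786O groups overlapped and the WT8 groups did not. The log2 change was 0.01 in 786O (95% interval -0.13 to 0.14, adjusted p 0.962 in edgeR), while CLOCK rose by 0.45 in WT8 (SE 0.07, adjusted p 5.29e-07), to 137.0% of its control. The interaction was 0.45 (SE 0.10, adjusted p 1.88e-04).

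CLOCK had 39.4 ± 1.82 CPM (SD, n = 3) in 786O shControl, 39.5 ± 1.74 in 786O shBMAL1, 34.8 ± 2.15 in WT8 shBMAL1 and 25.4 ± 1.66 in WT8 shControl. The lines differed by -0.63 with shControl (adjusted p 3.42e-10, SE 0.07) and by -0.18 with shBMAL1 (SE 0.07, adjusted p 0.0172). The second of these depends on the scaling. With libraries scaled by their totals alone it was -0.079 and was not called (adjusted p 0.312 in edgeR), and the difference between WT8 shBMAL1 and 786O shControl likewise moved from -0.18 (adjusted p 0.0197) to -0.063 (adjusted p 0.414). The other alternatives kept both calls, as did all 12 fits without 1 library (highest adjusted p 0.0894 in edgeR), and the groups did not overlap in CPM. The separation of CLOCK in depleted WT8 from either 786O group is thus small and rests on a scaling beyond library totals.

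NPAS2 (chromosome 2, 101436601 to 101613291, plus strand), the alternative partner, moved in opposite directions in the lines. It had 244, 255 and 217 counts in 786O shControl and 395, 392 and 359 in 786O shBMAL1. In WT8 it had 345, 308 and 364 counts with shControl and 301, 250 and 228 with shBMAL1. In both lines the groups were free of overlap in CPM, with the depleted libraries above their controls in 786O and below them in WT8. NPAS2 rose by 0.68 in 786O (SE 0.11, adjusted p 5.31e-06 in edgeR), to 160.0% of its control. In WT8 it fell by 0.44 (SE 0.11, adjusted p 8.25e-04 in edgeR), to 73.7% of its control. The interaction of -1.12 (SE 0.16, adjusted p 2.38e-07) was the largest in size among the 4 genes.

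With shControl NPAS2 was the activator that was higher in WT8, at 9.40 ± 0.482 CPM (SD, n = 3) against 6.86 ± 0.604 in 786O (log2 0.46, adjusted p 4.91e-04, SE 0.11). With shBMAL1 this turned to 6.93 ± 0.972 CPM in WT8 against 10.98 ± 0.578 in 786O (log2 -0.66, adjusted p 2.41e-06, SE 0.11). No difference was called between WT8 shBMAL1 and 786O shControl (log2 0.02, 95% interval -0.22 to 0.25, adjusted p 0.914). At the top of the order, 786O shBMAL1 exceeded WT8 shControl by 0.22 (adjusted p 0.0605 in edgeR), which was not called with library totals alone (0.333) or in 4 of the 12 fits without 1 library, those without replicate 1 or 2 of either group (highest adjusted p 0.169).

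**Figure D1:**
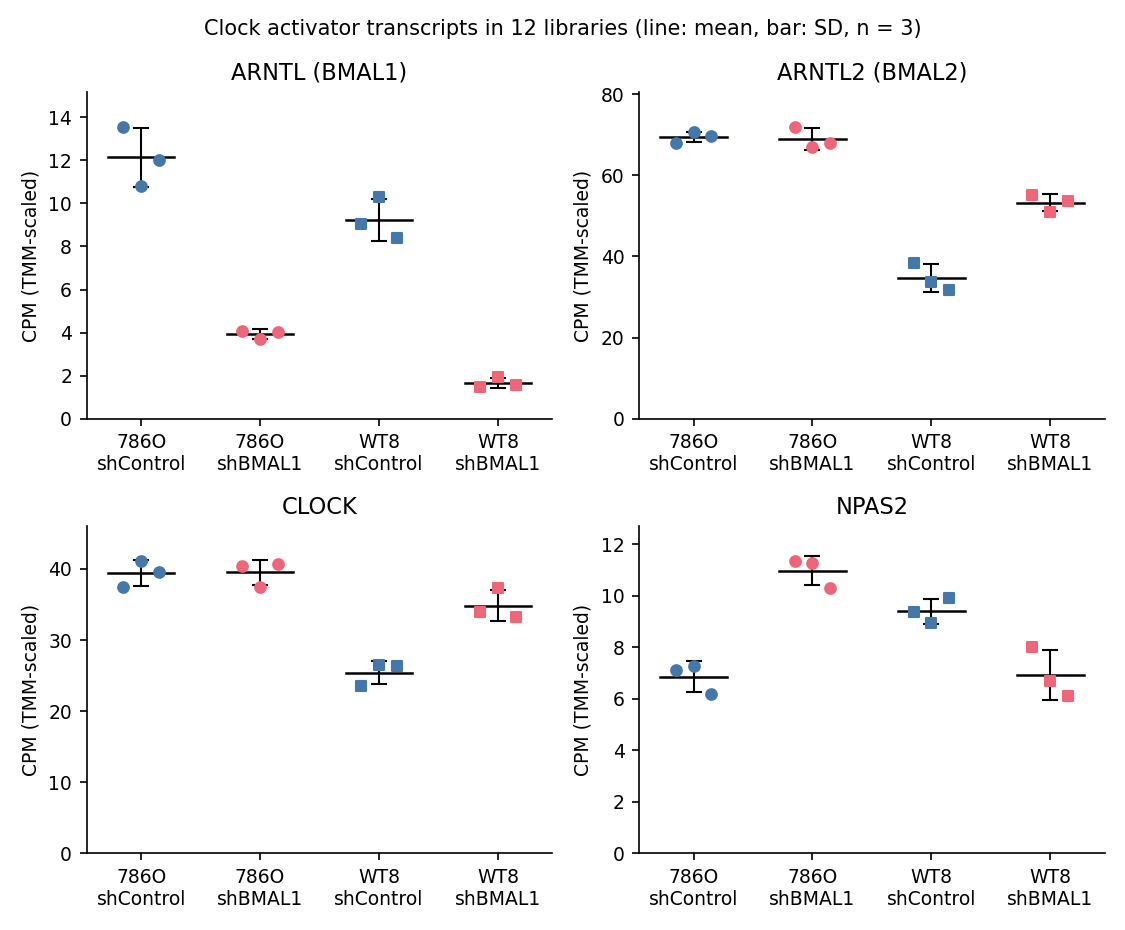
Level of each clock activator in the 12 libraries, in TMM-scaled CPM on axes that start at 0, by line and hairpin (circles 786O, squares WT8, blue shControl, red shBMAL1). Horizontal lines are group means and bars are SD (n = 3); ARNTL is lower with shBMAL1 in both lines, ARNTL2 and CLOCK are lowest in WT8 shControl, and NPAS2 is higher with shBMAL1 in 786O and lower in WT8.

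The 4 genes are best read against how much of the transcriptome moved. With shBMAL1 in 786O, 2 of the 4 were called at an adjusted p under 0.1, ARNTL lower and NPAS2 higher, where 48.9% of all genes tested were called (24.5% higher and 24.4% lower). In WT8 all 4 were called, 2 higher and 2 lower, against 69.8% of all genes (32.9% higher and 36.9% lower). Between the lines with shControl all 4 were called, 1 higher and 3 lower in WT8, against 79.5% of all genes (39.3% higher and 40.2% lower). With shBMAL1 all 4 were called lower in WT8, against 73.0% of all genes (36.0% higher and 37.0% lower). The interaction was called for all 4, above 0 for 2 and below 0 for 2, against 56.0% (27.4% and 28.5%). In the orders of levels given above, WT8 shBMAL1 and 786O shControl were compared against a background of 75.8% of genes called, and WT8 shControl and 786O shBMAL1 against 80.1%. Shares this high mean that a call alone says little about these genes, and sizes say more. The ARNTL change was exceeded in size by 3.67% of genes in 786O and by 4.43% in WT8. The NPAS2 change was exceeded by 16.2% of genes in 786O and by 50.7% in WT8. In WT8 the ARNTL2 change was exceeded by 38.1% of genes and the CLOCK change by 49.6%, and the CLOCK change was thus close to the median size of 0.45 over all genes. The line difference with shControl was exceeded in size by 65.1% of genes for ARNTL, 32.5% for ARNTL2, 48.8% for CLOCK and 60.4% for NPAS2.

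**Figure D2:**
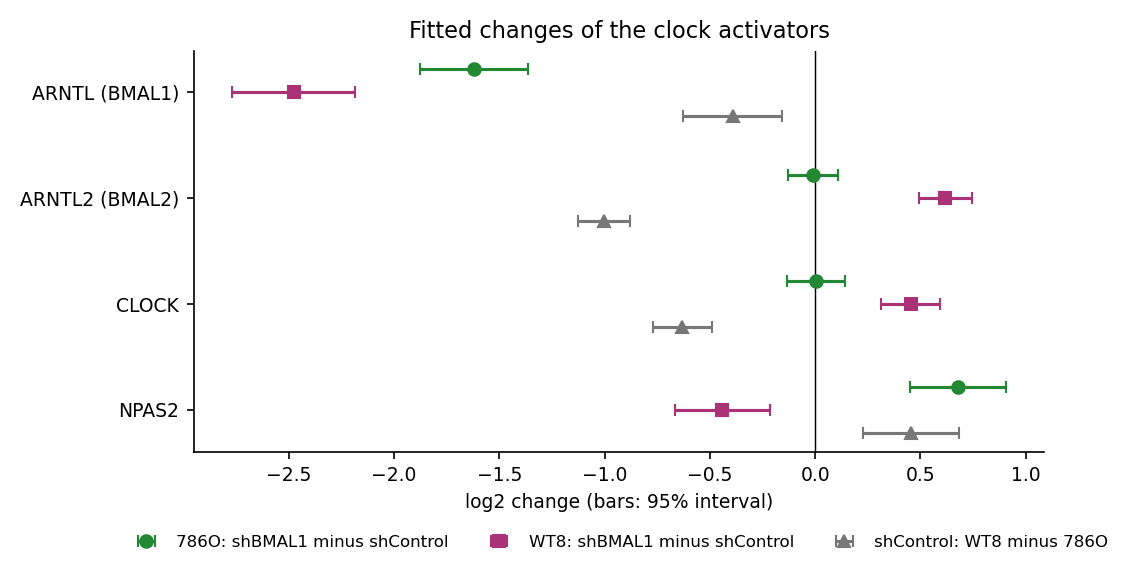
Fitted log2 changes with 95% intervals for shBMAL1 minus shControl in 786O (green circles) and WT8 (purple squares) and for WT8 minus 786O with shControl (grey triangles). ARNTL2 and CLOCK lie at -0.01 and 0.01 in 786O with intervals that span 0, and NPAS2 lies on opposite sides of 0 in the lines.

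For ARNTL2, CLOCK and NPAS2, depletion in WT8 brought levels nearer to those of 786O shControl. As a percent of the 786O shControl mean, ARNTL2 was at 49.9% in WT8 shControl and 76.6% in WT8 shBMAL1. CLOCK was at 64.6% and 88.5%, and NPAS2 at 137.1% and 101.0%. The WT8 change and the line difference share the WT8 shControl libraries, so a chance deviation there moves both. The share of all genes that moved nearer in this way is not given here. Of all genes, 69.8% were called with shBMAL1 in WT8 and 79.5% between the lines with shControl. As a sum, though not gene by gene, cell cycle markers had the same order of groups as ARNTL2 and CLOCK. MKI67, TOP2A, CCNB1, CDK1, BUB1, PLK1, CCNA2 and AURKA summed to 430 to 458 CPM in WT8 shControl. The sum was 1953 to 1997 CPM in WT8 shBMAL1 and 2003 to 2176 CPM in the 786O libraries. With shBMAL1, 4 of the 8 were called higher in WT8 than in 786O, 2 lower and 2 not called. In this comparison 73.0% of all genes were called. Against WT8 shControl, all 8 markers were called higher in WT8 shBMAL1, and their part in the results for ARNTL2 and CLOCK was not tested. VHL also lay nearer to its 786O level in WT8 shBMAL1 (647 ± 15.1 CPM; SD, n = 3) than in WT8 shControl (981 ± 56.5), against 18.8 ± 1.58 in 786O shControl, and its part in these results was not tested either.

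The balance of paralogs was measured within each library, where scaling between libraries drops out. The log2 ratio of ARNTL to ARNTL2 counts was -2.33, -2.71 and -2.53 in 786O shControl and -4.14, -4.18 and -4.07 in 786O shBMAL1. In WT8 it was -2.09, -1.71 and -1.91 with shControl and -5.21, -4.72 and -5.11 with shBMAL1. The mean fell by 1.61 in 786O and by 3.11 in WT8. ARNTL is the hairpin's own target, so a fall of this ratio was set by the depletion and is given with no test. In 786O it matched the ARNTL change alone, and in WT8 it also held the rise of ARNTL2.

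The log2 ratio of CLOCK to NPAS2 counts moved in opposite directions. It was 2.40, 2.49 and 2.68 in 786O shControl and 1.83, 1.73 and 1.98 in 786O shBMAL1. In WT8 it was 1.33, 1.57 and 1.41 with shControl and 2.08, 2.48 and 2.45 with shBMAL1. In 786O the partner pair shifted by -0.68 toward NPAS2, and in WT8 by 0.90 toward CLOCK, each without overlap and each with a two-sided exact permutation p of 0.1, the smallest that 3 libraries against 3 allow. Averaged over both lines the difference was 0.11, with a two-sided exact permutation p of 0.665 over 400 arrangements. The difference in this shift between the lines was not tested by itself, but the interactions of CLOCK and NPAS2 in edgeR had opposite signs and were both called.

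**Figure D3:**
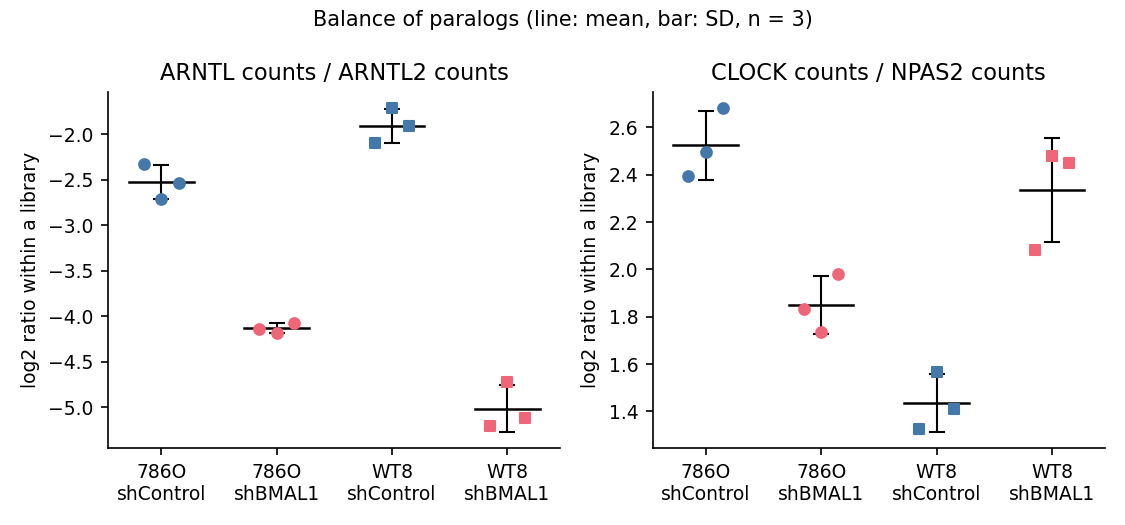
Log2 ratio of counts within each library for ARNTL to ARNTL2 and for CLOCK to NPAS2 (circles 786O, squares WT8, blue shControl, red shBMAL1; lines are means and bars SD, n = 3). Mean ARNTL to ARNTL2 was -2.52 and -4.13 in 786O and -1.91 and -5.01 in WT8, while CLOCK to NPAS2 was 2.52 and 1.85 in 786O and 1.43 and 2.34 in WT8, each given as shControl then shBMAL1.

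Levels can be compared between genes only per length of transcript, and the length that applies in these cells is not known. Per kilobase of all annotated exons (6.934 kb for ARNTL, 7.001 for ARNTL2, 11.533 for CLOCK and 12.504 for NPAS2), 786O shControl had 1.75 CPM per kb of ARNTL, 9.92 of ARNTL2, 3.41 of CLOCK and 0.549 of NPAS2. Per kilobase of the canonical transcript (2.787, 6.902, 10.47 and 4.02 kb in the same order), the levels were 4.35, 10.1, 3.76 and 1.71 CPM per kb. ARNTL2 was the most abundant of the 4 in all groups on both scales, whereas the order of ARNTL and CLOCK in 786O shControl changed with the length used. ARNTL supplied 14.99% ± 1.68 (SD, n = 3) of the BMAL transcripts per kb of all exons in 786O shControl and 5.45% ± 0.203 in 786O shBMAL1. In WT8 its share was 21.3% ± 2.19 with shControl and 3.06% ± 0.547 with shBMAL1. On the canonical length these shares were 30.2%, 12.4%, 39.8% and 7.18%. The sum of both BMAL genes in WT8 was 6.28 ± 0.531 CPM per kb with shControl and 7.84 ± 0.272 with shBMAL1 on all exons, but 8.34 ± 0.643 and 8.30 ± 0.227 on the canonical length, so its direction in WT8 depends on the length.

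Sequences upstream of the 4 genes were searched for the elements of the loop that would connect them, because ARNTL, CLOCK and NPAS2 are textbook targets of REV-ERB and ROR receptors and because E-boxes are what the dimer binds. The 6 windows of 300 bases that RefSeq gives for the 4 genes (GRCh38.p14, 250 bases before to 50 after a start site) were searched on both strands for CACGTG and CACGTT (E-box and a variant), TAGGTCA and TGGGTCA (cores of REV-ERB and ROR elements), and ACGTG and GCGTG (cores of hypoxia response elements, the first contained in CACGTG). Printed below in the direction of the gene, with the match in capitals, are a REV-ERB and ROR core in ARNTL (chr11:13277810-13277836, plus strand, from base 31 after the start), an E-box variant and a second such core in CLOCK (chr4:55546104-55546129 and chr4:55546133-55546159, minus strand, the latter matched as TGGGTCA on the opposite strand) and a hypoxia core at the start of NPAS2 (chr2:100820129-100820153, plus strand).
ARNTL TAGGTCA: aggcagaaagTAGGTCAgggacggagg
CLOCK CACGTT: accactcgggCACGTTtggagcagcg
CLOCK TGGGTCA: ctaggccttgTGACCCActttattcct
NPAS2 GCGTG: cgccggctctGCGTGcggaagagtt

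The same window of CLOCK also held GCGTG. Its E-box variant overlapped the other hypoxia core on the opposite strand. CACGTG was in none of the 6 windows, and the window of ARNTL2 held none of the 6 motifs. Among all 35116 promoter windows TAGGTCA was found in 1.85%, TGGGTCA in 3.92%, CACGTT in 5.34%, CACGTG in 7.26%, ACGTG in 21.4% and GCGTG in 36.5%. These matches describe letters in a short window, and no binding was measured here.

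The genes that feed back on the activators moved as follows. NR1D1 (REV-ERBα) fell in both lines, with log2 changes of -0.66 in 786O (SE 0.13, adjusted p 6.08e-05 in edgeR) and -1.19 in WT8 (SE 0.13, adjusted p 6.74e-10). NR1D2 (REV-ERBβ) fell too, by 1.77 in 786O, from 44.8 ± 2.02 to 13.1 ± 1.04 CPM (SD, n = 3), and by 0.62 in WT8, from 49.2 ± 4.43 to 32.1 ± 1.28 CPM. RORA, an activating receptor for the same elements, had at most 1 count in any library, and RORB had 0.

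All 5 period and cryptochrome genes were tested and called in both lines, 3 higher and 2 lower in 786O and 5 higher in WT8, where 48.9% and 69.8% of all genes were called, with median log2 changes of 0.49 and 1.02 against 0.00 and -0.04 over all genes. PER2 rose by 0.89 in 786O and by 2.01 in WT8, CRY1 by 0.61 and 1.02, and CRY2 by 0.49 and 1.25, each an inhibitor of the dimer. PER1 fell by 0.70 in 786O and rose by 0.39 in WT8, and PER3 fell by 0.45 and rose by 0.93.

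Of 12 genes of the E-box and D-box loops, 9 were tested, with 2 higher and 3 lower in 786O, near the 48.9% of all genes called, and 3 higher and 5 lower in WT8, beside 69.8% of all genes. Apart from NR1D1 and NR1D2, those that changed over 2-fold did so in WT8. DBP, a PAR-bZIP output gene of the dimer, fell by 2.31 there (adjusted p 1.66e-08, SE 0.30), where controls had 104 to 119 counts and depleted libraries 21 to 26, and BHLHE40, an E-box repressor, fell by 1.05. HLF, a relative of DBP, rose by 1.10, from 60 to 94 counts to 164 to 167. In 786O DBP had 6 to 19 counts and HLF 4 to 11, too few to show much of a change. Their log2 changes there were -0.44 (SE 0.43) and 0.12 (SE 0.46), neither of them called. Of 11 genes that modify or bind clock proteins, such as the casein kinases, 9 were tested, with 4 higher and 4 lower in 786O (48.9% of all genes called) and 2 higher and 5 lower in WT8, near the 69.8% of all genes. TIMELESS, which also serves in DNA replication, rose by 2.28 in WT8 and was the only gene of this list with a change over 2-fold in either line. The 786O counts for both lists lean on few libraries, as leaving out 1 library left 3 to 5 genes called of the loop list and 4 to 8 of the modifier list. For the loop list 3 were left without 786O shControl replicate 2 or 3 or 786O shBMAL1 replicate 1, and for the modifier list 4 or 5 were left without any 1 of the 786O libraries other than shControl replicate 1, after which 6 were left.

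The remaining bHLH-PAS genes include ARNT, the standard partner of HIF2α, and 8 of 12 were tested. In 786O 4 were higher and 1 lower, beside 48.9% of all genes called, and in WT8 1 was higher and 4 lower, a smaller share than the 69.8% of all genes. ARNT and ARNTL were the members of the ARNT branch that fell in 786O, ARNT by 0.47 (SE 0.07, adjusted p 4.15e-07 in edgeR), while ARNT2 changed by 0.01 (adjusted p 0.966) and ARNTL2 by -0.01. In WT8 ARNT had a change of -0.11 that was not called (adjusted p 0.152 in edgeR). It was called with halved counts, at -0.12, and without WT8 shBMAL1 replicate 1, at -0.15. In the same line ARNT2 fell by 1.41, ARNTL fell and ARNTL2 rose. Thus ARNTL2 was the sole gene of these 4 that was called higher in WT8. Among the HIF-α genes, EPAS1 (HIF2α) fell by 1.51 and HIF1A by 1.09 in WT8. In 786O the EPAS1 change of -0.08 was not called (adjusted p 0.159; it was called without 786O shBMAL1 replicate 3, at -0.12), and HIF1A rose by 0.43. NPAS1, a low-count relative of NPAS2, moved in the same directions as it, by 1.22 in 786O (9 to 18 counts to 24 to 37) and by -1.02 in WT8 (11 to 28 counts to 5 to 15, adjusted p 0.0517 in edgeR), and these calls were lost without 786O shControl replicate 3 (0.98) and without WT8 shControl replicate 1 (-0.77) or 3 (-0.92) or WT8 shBMAL1 replicate 2 (-0.67).

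**Figure D4:**
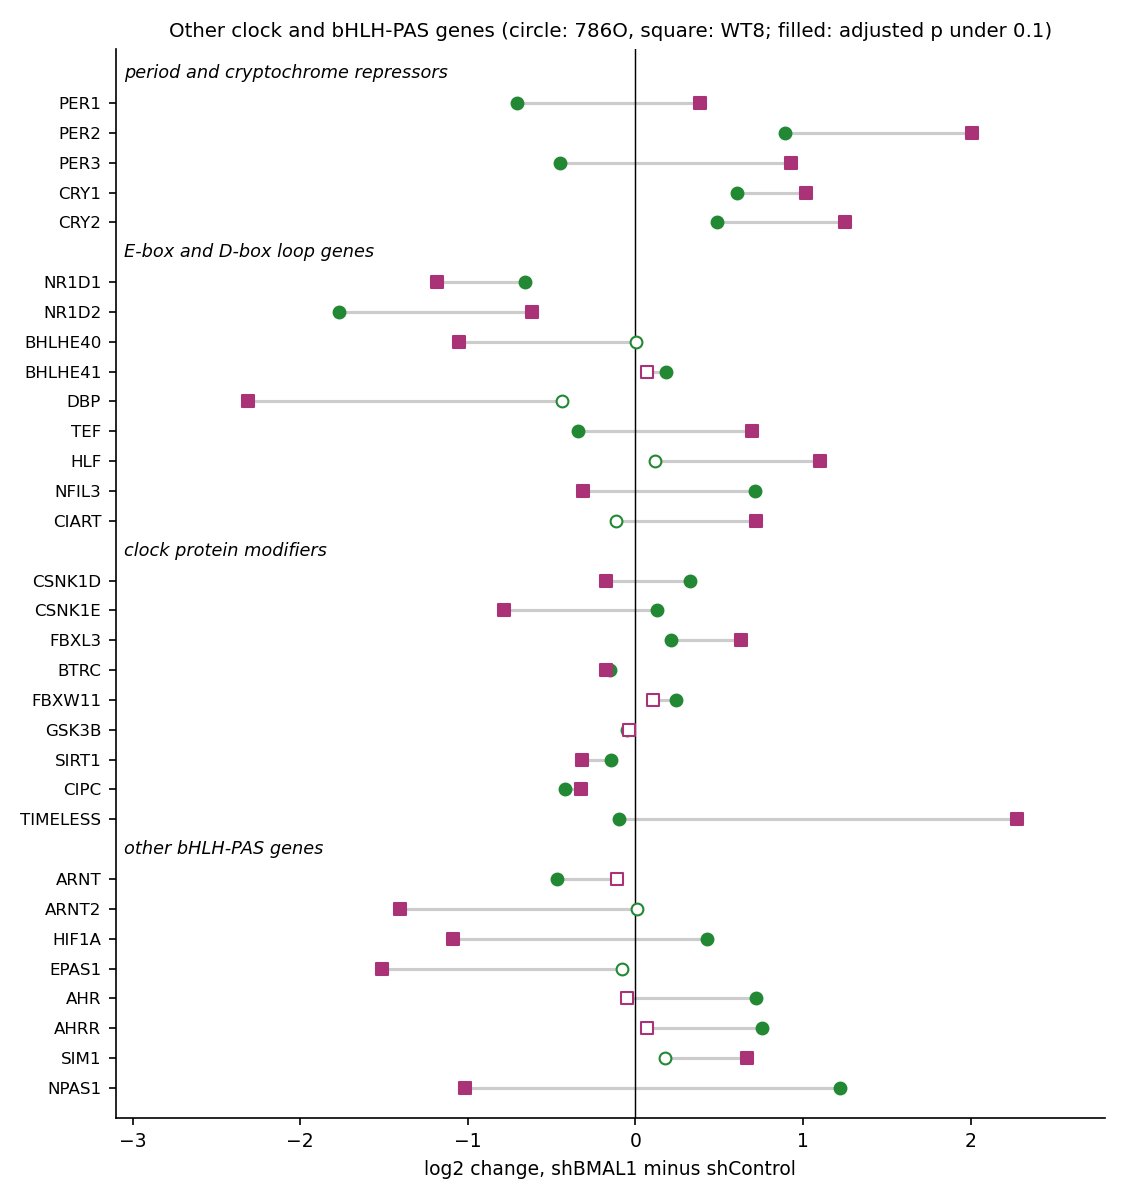
Fitted log2 change with shBMAL1 of the other clock and bHLH-PAS genes tested, circles for 786O and squares for WT8, filled where the adjusted p was under 0.1. The 5 period and cryptochrome genes lie to the right of 0 in WT8, NR1D1 and NR1D2 lie to the left in both lines, and EPAS1, HIF1A and ARNT2 lie far to the left in WT8.

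The genes whose profile over the 12 libraries was most like that of each activator were sought among 12947 genes with a mean of at least 50 counts, by the root mean square (RMS) difference of log2 CPM after each gene was centred on its mean. Nearest to ARNTL were TBC1D2 (RMS 0.233), SLFN5 (0.260) and EPHB4 (0.317), and TBC1D2 ran at 139, 64.9, 115 and 22.2 CPM in the order 786O shControl, 786O shBMAL1, WT8 shControl and WT8 shBMAL1. Nearest to ARNTL2 were EIF3CL (0.0589), AGK (0.0629) and UGP2 (0.0755), of which EIF3CL is a near-identical copy of EIF3C and its counts are uncertain. ZC3H7B (0.0589), ATP2A2 (0.0688) and IPO8 (0.0696) were nearest to CLOCK, with ZC3H7B at 205, 204, 138 and 188 CPM in the same order. NPAS2 was most like LOC100506178 (0.123), SH3RF1 (0.124) and CCDC57 (0.128), with SH3RF1 at 29.5, 38.9, 38.0 and 27.2 CPM. Among the activators themselves ARNTL2 and CLOCK were closest (0.192), CLOCK and NPAS2 differed by 0.443 and ARNTL2 and NPAS2 by 0.549, and ARNTL stood 1.14 to 1.23 from the others.

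Transcripts of some neighbouring genes cover small stretches of these exons. TMEM165, on the opposite strand, shares 76 bases or 0.659% of the exon length of CLOCK, and it had 236, 287, 161 and 169 CPM in 786O shControl, 786O shBMAL1, WT8 shControl and WT8 shBMAL1. An antisense RNA of ARNTL2 shares 73 bases or 1.04% of its exons. An antisense RNA of NPAS2 shares 400 bases or 3.20% of the exons of NPAS2. The spans of other noncoding RNA genes on the opposite strand overlap 5 annotated exons of NPAS2 and 1 of ARNTL. Bases shared with those genes were not measured. Whether strand was used in counting is not stated in the sources used here.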

How the data were processed

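Stranded mRNA libraries of 12 cultures were sequenced as read pairs by BGI. According to the study's methods, the authors used SeqMan NGen with GRCh37 for alignment and ArrayStar for the count table, whereas the submitters' processing notes list hg38, STAR and DESeq2. Which of them made the table is unresolved. The annotation, use of strand and handling of multiply aligned reads are not given in the sources used here. The values used were expected counts per gene as deposited by the authors, unscaled, in 38074 lines for 38021 names. A stand-in of 0.028 for 0 made up 47.0% of values and was set to 0, lines of a name were summed, and values, 5.67% of which above 0 were not whole, were rounded. Plain counts had been assumed when tests were chosen. A count of 2 (14754 times) was more common than 1 (11117 times), so mates may have been counted separately.

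Genes were filtered with filterByExpr (16838 of 26925 kept), scaled by TMM (factors 0.948 to 1.04) and fitted with a mean per group over 12 libraries (edgeR 4.0.16, R 4.3.3, robust quasi-likelihood F test, Benjamini-Hochberg over all genes, called at an adjusted p under 0.1, the study's threshold). The common biological coefficient of variation was 5.70%. SE is the absolute log2 change over √F. Adjusted p-values are from this edgeR fit. The ratio of CLOCK to NPAS2 was tested by exact permutation, while the test planned for ARNTL to ARNTL2 is not reported because the hairpin targets ARNTL. The fit was checked on simulated counts. Positions and exon lengths are from GENCODE v44 lifted to GRCh37, and promoter sequences from RefSeq on GRCh38.p14. The genes named are the 4 activators, listed clock, bHLH-PAS and marker genes called with a change over 2-fold or fixed by name (NR1D1, NR1D2, RORA, the period and cryptochrome genes, ARNT, ARNT2, EPAS1, HIF1A and VHL), and the 3 genes most like each activator. RORB, TMEM165 and the antisense RNAs were named after their values were seen. Members and lists were chosen with earlier results of these data known. Alternatives were other scalings, no filter, DESeq2 1.42.0, fits of only the groups compared, halved counts, a replicate block, 1 count added to ratios and leaving out each library.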

Additional observations from a re-analysis of the deposited data

Results flagged for a closer look

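The change with shBMAL1 differed between WT8 and 786O for all 4 activators, by the interaction test of edgeR over 16838 genes, 56.0% of which were also called. The change in WT8 minus that in 786O was -0.86 for ARNTL (SE 0.19, adjusted p 3.69e-04), with a decrease in both lines. It was 0.63 for ARNTL2 (SE 0.09, adjusted p 1.10e-07) and 0.45 for CLOCK (SE 0.10, adjusted p 1.88e-04), which rose in WT8 and were not called in 786O. It was -1.12 for NPAS2 (SE 0.16, adjusted p 2.38e-07), which rose in 786O and fell in WT8. Without 1 library at a time these values ran from -0.97 to -0.77, from 0.57 to 0.71, from 0.40 to 0.49 and from -1.22 to -1.02 in the same order, and each was called in all 12 fits. The interaction was exceeded in size by 26.9% of genes for ARNTL, 36.5% for ARNTL2, 49.0% for CLOCK and 19.7% for NPAS2.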

How the results depend on the processing

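Of 192 values for the activators under alternatives other than leaving out a library, 189 kept their direction and call. With library totals alone, which shifts the median of all genes between lines to 0.12 with shControl and 0.11 with shBMAL1, 3 calls were lost: CLOCK in WT8 against 786O with shBMAL1 (-0.079), CLOCK in WT8 shBMAL1 against 786O shControl (-0.063) and NPAS2 in WT8 shControl against 786O shBMAL1 (-0.11). Without 1 library, signs of uncalled changes turned for ARNTL2 in 786O (-0.045 to 0.0063), CLOCK in 786O (-0.033 to 0.037), NPAS2 between WT8 shBMAL1 and 786O shControl (-0.10 to 0.10) and ARNT2 in 786O (-0.085 to 0.067), and NPAS2 between WT8 shControl and 786O shBMAL1 (-0.27 to -0.18) lost its call in 4 of 12 fits. Counts of list genes called in 786O ran from 4 to 8 for clock protein modifiers and from 3 to 5 for loop genes. Same-numbered libraries did not deviate together (r from -0.0456 to 0.0481 across genes in 18 pairs). This cannot tell whether cultures of the same number were handled together. The replicate block changed no call of the activators (ARNTL -1.62 in 786O and -2.48 in WT8, NPAS2 0.68 and -0.45, CLOCK to NPAS2 0.11 over both lines). It gave 8055 and 11622 genes called with shBMAL1 in 786O and WT8. ARNTL in WT8 shBMAL1, at 56 to 72 counts, is limited by depth. If mates were counted separately, independent fragments are fewer, though halved counts changed no call of the activators.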
